A study of Mus musculus with 8 samples.

Results

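The genes described here are 10 regulators of myeloid progenitors and myeloid lineage choice, namely Myb, Myc, Gfi1, Spi1, Runx1, Zeb2, Bach2, Ikzf1, Cd34 and Flt3. They were chosen by name, and their values were read from the deposited table of 13744 genes. A row was found for 9 of the 10, and Gfi1 was not analysed here. All 9 passed the filter on low values, among 12752 genes tested. RNA was measured by bulk RNA-seq in Ly6C+ classical monocytes sorted from the bone marrow of mice of 4 genotypes: wild type, and knockouts of Irf2 (Irf2 KO), of Nr4a1 (Nr4a1 KO) and, by a conditional allele, of Bcl6 (Bcl6 cKO). Each genotype had 2 libraries, 8 in all. The Cre driver and deleted exons of the conditional allele, the design of the other alleles, and the strain, age and sex of the mice are not given in the labels or series text. Whether the 2 libraries of a group stem from different mice is not stated, so p-values measure the spread between these libraries, which may be technical. In bulk RNA, fewer cells of a type and less RNA per cell cannot be told apart.

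Blood-forming cells are steered by a small set of transcription factors whose levels shift as progenitors mature. CD34 is a surface sialomucin of stem and progenitor cells, and FLT3 is the receptor tyrosine kinase of lymphoid-primed and dendritic cell progenitors. MYB and MYC keep progenitors growing and immature, PU.1 (made from Spi1), RUNX1 and Ikaros (made from Ikzf1) open lineage programmes, and ZEB2 and BACH2 are mainly repressors. Monocytes descend from such progenitors and later give rise to Ly6C-low nonclassical cells, a step in which ZEB2 and NR4A1 take part.

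Values are log2 CPM, the log2 of reads per 1e6 reads, and 1 CPM stood for 47.9 to 61.8 reads. Library totals ran from 46617756 to 62633123 reads. The targeted genes were checked first. Nr4a1 stood at 4.64 and 5.29 in wild type and at 2.32 and 2.98 in Nr4a1 KO, but it was as low in Irf2 KO (2.59 and 2.52), so its low level is not particular to the Nr4a1 KO libraries. Irf2 stood at 7.18 and 7.14 in wild type and at 6.50 and 6.69 in Irf2 KO. Bcl6 stood at 6.53 and 6.40 in the Bcl6 cKO-labelled libraries, above the 4.66 and 4.64 of wild type. These are sums over whole genes, which may count exons outside the deleted part, so they do not settle the Bcl6 label, and directions for that group are directions for the libraries so labelled. The classical monocyte list (10 of 10 genes with a row, Ly6c2, Ccr2 and Lyz2 among them) summed to 35050 to 39970 CPM in wild type and to 22270 to 24750 CPM in Irf2 KO. Most of that gap was Lyz2, at 23090 and 26800 CPM in wild type and 11570 and 12700 in Irf2 KO. Of the 10 genes, limma called 6 lower in Irf2 KO (Csf1r, Fn1, Itgam, F13a1, Cd14 and Lyz2) and 0 higher. The list median log2 fold change was -0.60, beside -0.04 over all genes. Ly6c2, the gene of the sort marker, stood at 3747 and 4755 in wild type and 5003 and 6247 in Irf2 KO (adjusted p = 0.278).

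In wild type, the regulators spanned a wide range once each level was divided by exon length. That length counts every annotated exon base of a gene once, from 2695 bases for Spi1 to 19942 for Zeb2. Spi1 was highest at 4.63 ± 0.03 log2 CPM per kb (SD, n = 2), above 82.3% of the genes tested. Ikzf1 followed at 4.32 ± 0.11, Myc at 3.36 ± 0.05, Zeb2 at 3.22 ± 0.10 and Runx1 at 1.47 ± 0.13. The progenitor genes were lower, with Cd34 at 0.56 ± 0.15, Myb at 0.22 ± 0.29 and Flt3 at -1.16 ± 0.31 log2 CPM per kb. Bach2 was lowest at -1.72 ± 0.24, above 3.09% of the genes tested. The ranges of the 2 wild type libraries did not overlap between any neighbours in this order, though Myc and Zeb2, and Cd34 and Myb, lay close together. Both libraries were divided by the same length, so these ranges do not cover error in it. Lengths of the transcripts made in these cells were not tested, and the order of close neighbours may depend on them.

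Regulators were called against wild type in Irf2 KO and in Nr4a1 KO. The test, limma with Benjamini-Hochberg adjustment over all genes tested, called 3 of 9 in Irf2 KO, where Myb rose and Cd34 and Bach2 fell, beside 21.6% of all genes (9.26% higher, 12.3% lower). It called 2 of 9 in Nr4a1 KO, where Myc fell and Zeb2 rose, beside 15.1% of all genes (3.94% higher, 11.2% lower). It called 0 of 9 in the Bcl6 cKO-labelled libraries, beside 5.01% of all genes (1.36% higher, 3.65% lower), and 3 (Runx1, Zeb2 and Ikzf1) had an unadjusted p under 0.05. limma voom on the reads called 2 of these, Runx1 and Zeb2. The median log2 fold change of the 9 was -0.26 in Irf2 KO, 0.16 in Nr4a1 KO and 0.20 in the Bcl6 cKO-labelled libraries, beside -0.04, 0.01 and -0.01 over all genes tested. The 3 comparisons share the wild type libraries.

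**Figure D1:**
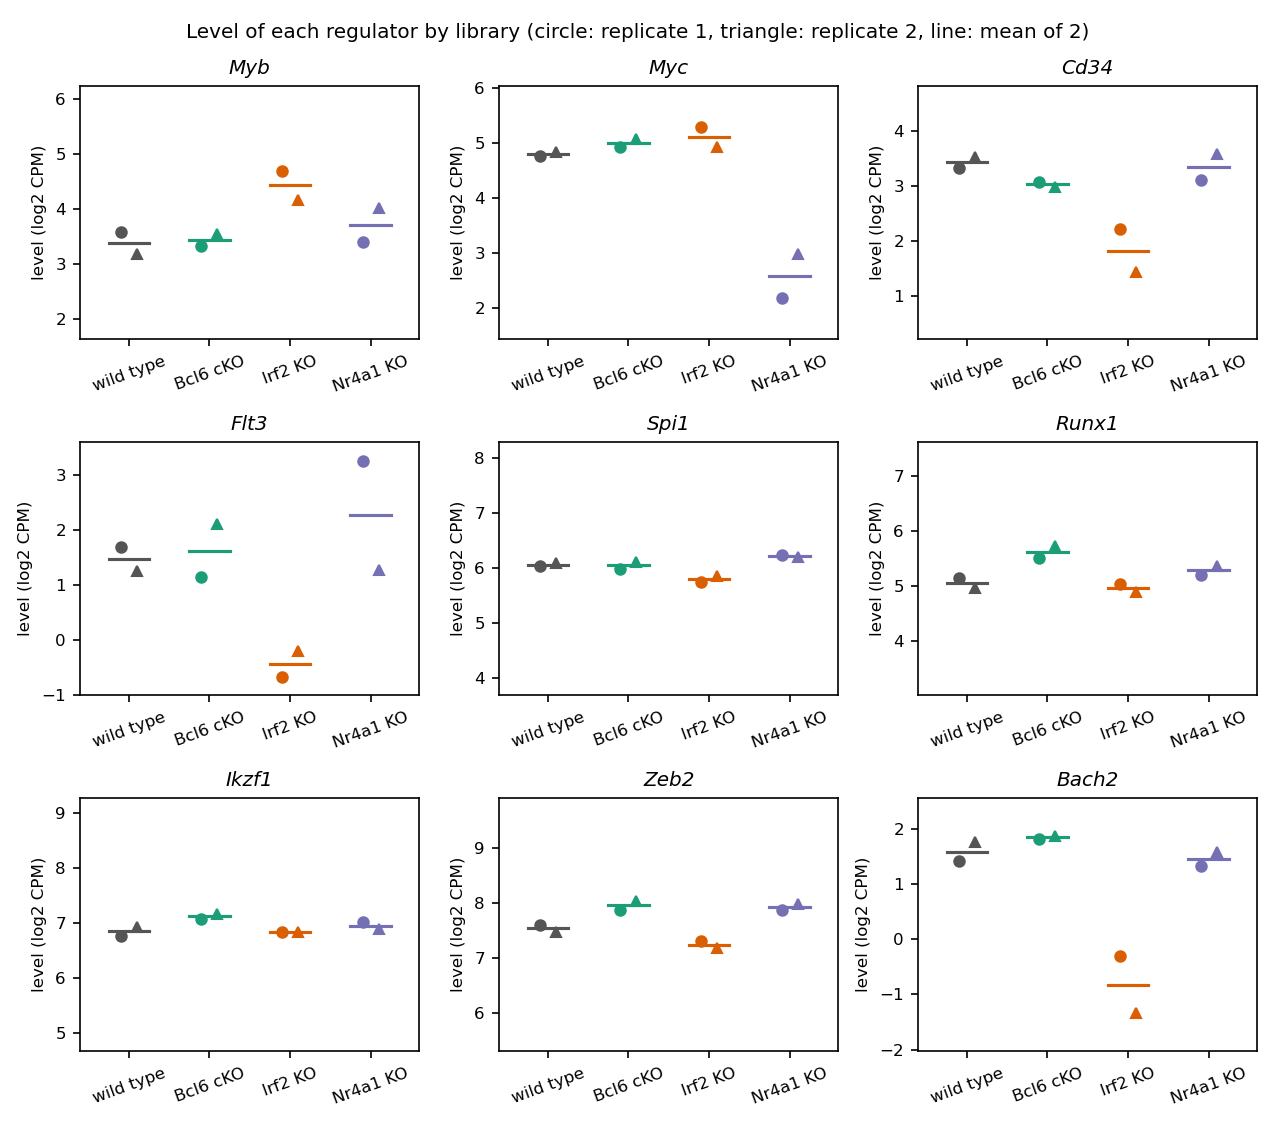
Level of each regulator in log2 CPM (y axis, the same span in every panel) in the 8 libraries, grouped by genotype (x axis), with replicate 1 as a circle, replicate 2 as a triangle and the mean of 2 as a line. Myc sits at 2.19 and 3.0 in Nr4a1 KO and at 4.77 or more elsewhere, and Bach2 is below 0 in both Irf2 KO libraries alone.

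**Figure D2:**
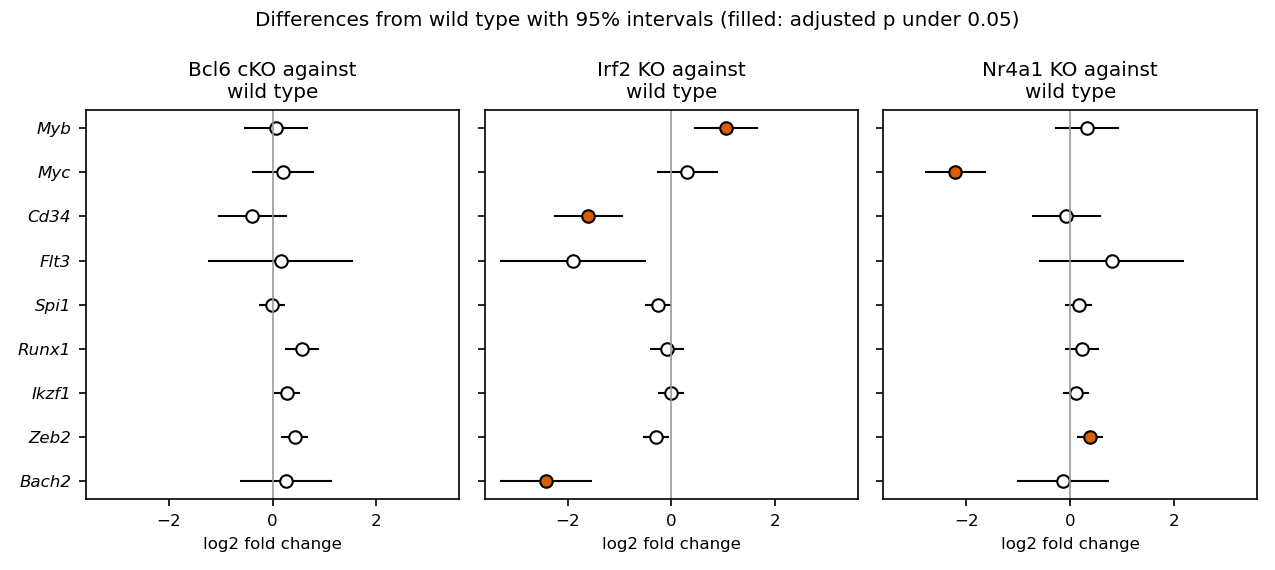
Log2 fold change of each regulator against wild type (x axis) with its 95% interval from limma, in 1 panel per knockout, filled where the adjusted p is under 0.05. Filled points are Myb, Cd34 and Bach2 in Irf2 KO and Myc and Zeb2 in Nr4a1 KO.

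The promoters of the regulators called against wild type are shown because these genes differed in Irf2 KO or Nr4a1 KO. RefSeq start-site windows (GRCm38.p6) were matched for 7 members in 12 windows. Myc and Spi1 had no entry. The 250 bases before the start follow, 5′ to 3′ on the gene's strand. Capitals mark a match to the MYB letters CAACNG on either strand, which 35.02% of all 32851 windows of 300 bases hold.
Myb, chr10:21160985-21161234, minus strand: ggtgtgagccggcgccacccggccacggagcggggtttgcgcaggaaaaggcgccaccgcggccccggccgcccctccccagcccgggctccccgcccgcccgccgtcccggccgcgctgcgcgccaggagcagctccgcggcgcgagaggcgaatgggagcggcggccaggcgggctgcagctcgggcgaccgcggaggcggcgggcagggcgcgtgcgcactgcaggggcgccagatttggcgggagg
Cd34, chr1:194938571-194938820, plus strand: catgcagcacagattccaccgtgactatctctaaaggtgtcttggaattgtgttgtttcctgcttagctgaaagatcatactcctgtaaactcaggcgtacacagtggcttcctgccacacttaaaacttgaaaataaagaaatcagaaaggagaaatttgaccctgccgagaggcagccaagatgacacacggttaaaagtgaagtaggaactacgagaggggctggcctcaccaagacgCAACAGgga
Bach2, chr4:32417185-32417434, plus strand, at a start inside the annotated gene: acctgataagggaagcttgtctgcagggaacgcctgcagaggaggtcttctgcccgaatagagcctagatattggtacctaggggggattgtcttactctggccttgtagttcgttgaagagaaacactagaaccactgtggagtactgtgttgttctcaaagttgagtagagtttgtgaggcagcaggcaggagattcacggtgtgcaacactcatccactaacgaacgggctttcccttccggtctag
Zeb2, chr2:45117443-45117692, minus strand, the first of 4 windows: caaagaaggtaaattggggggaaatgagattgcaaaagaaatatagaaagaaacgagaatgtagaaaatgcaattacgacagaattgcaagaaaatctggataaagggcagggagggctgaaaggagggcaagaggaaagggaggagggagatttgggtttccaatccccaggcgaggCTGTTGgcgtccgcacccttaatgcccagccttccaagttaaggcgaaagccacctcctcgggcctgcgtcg
The Cd34 match lies 9 bases before the start and the Zeb2 match 72 bases before it. None of the 12 windows held the IRF letters GAAA and GAAA with any 2 bases between (in 3.44% of all windows), the NR4A1 letters AAAGGTCA (1.51%) or the BCL6 letters TTCCNNGAA (4.81%), each searched on both strands. The 4th Zeb2 window held the BACH and AP-1 letters TGANTCA 2 times, at 189 and 132 bases before its start. Of all windows, 7.81% held any. That start lies inside the annotated gene, and 191 of the 250 bases before it are annotated Zeb2 exon. These are matches of letters only.

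Cd34 (chromosome 1, 194938819-194961279, plus strand, GRCm38) fell in Irf2 KO. Its level was 3.32 and 3.53 log2 CPM in wild type, 3.08 and 2.99 in the Bcl6 cKO-labelled libraries, 2.21 and 1.44 in Irf2 KO, and 3.12 and 3.59 in Nr4a1 KO. Both Irf2 KO libraries lay below all 6 others. The log2 fold change against wild type was -1.60 ± 0.28 (SE), a 3.03-fold fall with an adjusted p of 0.00712. The call was kept in every alternative run, with values from -1.98 to -1.22. In the Bcl6 cKO-labelled libraries the difference was -0.39 ± 0.28 (adjusted p = 0.469), and in Nr4a1 KO it was -0.07 ± 0.28 (adjusted p = 0.889, 95% interval -0.72 to 0.57). An antisense gene, Gm16897, overlaps 2.03% of the Cd34 exon bases, and the kit does not mark strand.

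Flt3 (chromosome 5, 147330741-147400489, minus strand) was scarce and varied most between replicates. It had 186 and 121 reads in wild type, 136 and 223 in the Bcl6 cKO-labelled libraries, 30 and 47 in Irf2 KO, and 487 and 115 in Nr4a1 KO. In log2 CPM these were 1.69 and 1.24, 1.14 and 2.10, -0.67 and -0.20, and 3.26 and 1.27. The Irf2 KO libraries were the lowest of the 8, and the 2 Nr4a1 KO libraries differed by 1.99, more than any knockout mean differed from wild type. Against wild type the Irf2 KO difference of -1.90 ± 0.61 (SE) did not pass (adjusted p = 0.0557). It passed without Nr4a1 KO replicate 1 (adjusted p = 0.0106) or replicate 2 (0.00912), with library quality weights (0.0348) and with the 2 groups fitted alone (0.0193). The Nr4a1 KO difference was 0.80 ± 0.61 (adjusted p = 0.419), and single libraries decided it: it was -0.195 without Nr4a1 KO replicate 1 and passed, at 1.792 (adjusted p = 0.0407), without replicate 2.

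Flt3 is also made by dendritic cells, so their markers were set beside it. The other conventional dendritic cell genes with a row (6 of 9 listed genes once Flt3 is left out) summed to 217 to 367 CPM in wild type. They summed to 44.8 to 97.4 CPM in Irf2 KO and to 570.9 to 734.3 in the Bcl6 cKO-labelled libraries. Flt3 differed from wild type by 0.16 ± 0.61 in the latter (adjusted p = 0.915). Cd74 alone stood at 133 and 256.9 CPM in wild type and 55.9 and 16.4 in Irf2 KO. It was 462.2 and 580.6 CPM in the Bcl6 cKO-labelled libraries, most of the sum there. H2-Ab1 and Clec10a were also above wild type in these libraries, whereas Cd209a, Xcr1 and Clec9a were below it. Cd209a stood at 23.4 and 31.3 CPM there and at 36.3 and 45.2 in wild type. Of 6 listed genes tested, Flt3 among them, limma called 0 in the Bcl6 cKO-labelled libraries against wild type. In Nr4a1 KO the listed genes summed to 435.8 CPM in one library and 2720 in the other, mostly from Cd74. Flt3 was high in Nr4a1 KO replicate 1, whereas Cd74 was high in replicate 2 (2576 CPM against 369.6). The part of dendritic cells in the Flt3 values was not tested.

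Myb (chromosome 10, 21124935-21160984, minus strand) rose in Irf2 KO. Its level was 3.58 and 3.18 log2 CPM in wild type, 3.34 and 3.56 in the Bcl6 cKO-labelled libraries, 4.69 and 4.17 in Irf2 KO, and 3.40 and 4.02 in Nr4a1 KO. Both Irf2 KO libraries were above all 6 others, and replicate 2 of Irf2 KO was close to replicate 2 of Nr4a1 KO. The log2 fold change against wild type was 1.05 ± 0.26 (SE), a 2.07-fold rise with an adjusted p of 0.0252. The call was lost without Irf2 KO replicate 1 (0.79, adjusted p = 0.145), without wild type replicate 2 (0.85, adjusted p = 0.135) and with no trend of the prior variance (adjusted p = 0.0518). The antisense gene Gm26577 overlaps 6.26% of the Myb exon bases.

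Genes that MYB is known to switch on in myeloid cells were higher in Irf2 KO too. Of 6 tested, 5 rose, beside 9.26% of all genes, with a list median of 1.22 beside -0.04 over all genes. They were Ms4a3 (2.76), a membrane protein of granulocyte-monocyte progenitors, Ctsg (1.69), Prtn3 (1.5), Mpo (0.94) and Elane (0.85), which encode primary granule enzymes. All 5 were still called when any 1 of the 8 libraries was left out. The other, Bcl2, stood at -0.25 with an adjusted p of 0.627. In Nr4a1 KO, Ms4a3 (1.61) and Ctsg (0.66) rose, and in the Bcl6 cKO-labelled libraries Elane rose (0.53), where Myb itself was not called, and these 3 calls were each lost without 3 or more of the 8 libraries in turn. These granule genes also serve as markers of early myeloid cells. The early myeloid list (7 of 10 genes with a row once Cd34 is left out) summed to 1828 to 2087 CPM in wild type and 3691 to 4733 CPM in Irf2 KO, in the same libraries in which Cd34 fell. Cebpe, a transcription factor of granulocyte precursors on that list, went the other way, from 29.4 and 31.4 CPM in wild type to 7.77 and 8.22 in Irf2 KO (-1.93, adjusted p = 0.00131), and it was also called lower in the other 2 knockouts. Kit and Ms4a2, also on that list, were not analysed here. Whether more early cells had passed the sort was not tested.

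Myc (chromosome 15, 61985391-61990374, plus strand) fell in Nr4a1 KO. Its level was 4.77 and 4.84 log2 CPM in wild type (1581 and 1469 reads), 4.94 and 5.07 in the Bcl6 cKO-labelled libraries, 5.29 and 4.92 in Irf2 KO, and 2.19 and 3.0 in Nr4a1 KO (232 and 382 reads). The 2 Nr4a1 KO libraries lay below all 6 others, with no overlap. The log2 fold change against wild type was -2.21 ± 0.25 (SE), a 4.63-fold fall with an adjusted p of 0.000567. It passed in every alternative run, with values from -2.62 to -1.81. Against wild type the difference was 0.20 ± 0.25 in the Bcl6 cKO-labelled libraries (adjusted p = 0.699) and 0.30 ± 0.25 in Irf2 KO (adjusted p = 0.415, 95% interval -0.27 to 0.87).

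Growth genes that MYC is known to drive were called most often in Irf2 KO, where Myc itself was not called, and the counts were not tested against each other. In Nr4a1 KO, where Myc fell, 3 of 18 fell, beside 11.2% of all genes. They were Bop1 (-1.97), Ppan (-1.59) and Fbl (-1.01), which encode nucleolar proteins of ribosome assembly. The list median there was -0.13, beside 0.01 over all genes, and 0.08 after a correction for GC content and length. Under median centring, which moved the median of all genes by 0.129 in Nr4a1 KO and 0.102 in Irf2 KO, 2 of the 18 also rose in Nr4a1 KO. In Irf2 KO 12 of 18 rose and 0 fell, beside 9.26% higher and 12.3% lower of all genes. The median was 0.59, beside -0.04 over all genes. Srm (1.30) and Odc1 (1.25), both enzymes of polyamine synthesis, rose most, and Gnl3 (1.19), Npm1 (0.84) and Ncl (0.78), nucleolar proteins, rose too. The count ran from 5 to 13 when single libraries were left out, and was 5 without Irf2 KO replicate 2 and 6 without wild type replicate 2. In every such fit Srm, Gnl3, Nop58, Npm1 and Ncl rose in Irf2 KO and Bop1, Ppan and Fbl fell in Nr4a1 KO. In the Bcl6 cKO-labelled libraries 0 of 18 were called by limma or by limma voom, 0 had an unadjusted p under 0.05, and the median was -0.01.

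**Figure D3:**
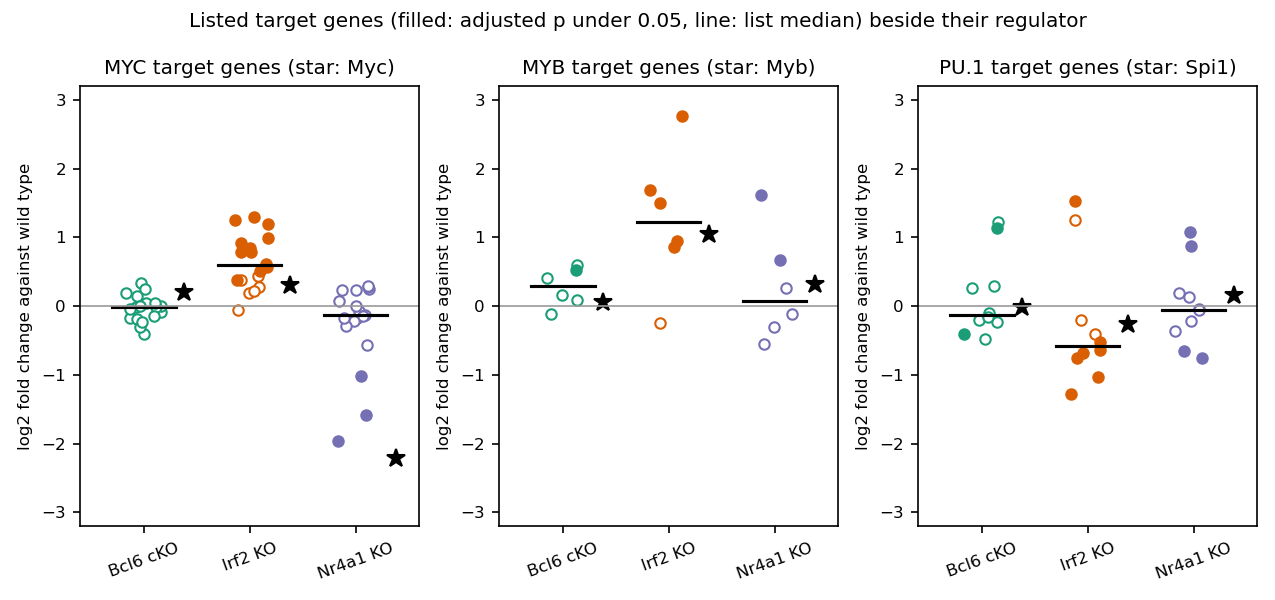
Log2 fold change against wild type (y axis) of listed target genes of MYC (18), MYB (6) and PU.1 (10) in the 3 knockouts (x axis), filled where the adjusted p is under 0.05, with the list median as a line and the regulator's own value as a star. MYC target genes have a median of 0.59 in Irf2 KO with Myc at 0.30, and of -0.13 in Nr4a1 KO with Myc at -2.21.

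The partners of MYC were tested next. MAX pairs with MYC, and the MXD proteins compete with it for MAX. Of 10 network genes tested, limma and limma voom called 0 in the Bcl6 cKO-labelled libraries and 0 in Nr4a1 KO, with 2 in each at an unadjusted p under 0.05. In Irf2 KO 3 fell, beside 12.3% of all genes. They were the MYC antagonists Mxd4 (-1.21), Mxi1 (-0.70) and Mxd3 (-0.56), of which only Mxd4 was called without any 1 library. Max itself stood at 0.67 ± 0.39 in Irf2 KO (adjusted p = 0.25).

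Spi1 (chromosome 2, 91082390-91115756, plus strand) did not pass the main test against wild type in any knockout, though it passed in Nr4a1 KO after a correction for GC content and length. Its level was 6.04 and 6.09 log2 CPM in wild type, 5.99 and 6.11 in the Bcl6 cKO-labelled libraries, 5.75 and 5.86 in Irf2 KO, and 6.24 and 6.21 in Nr4a1 KO. The Irf2 KO libraries were the 2 lowest and the Nr4a1 KO libraries the 2 highest. The differences from wild type were -0.26 ± 0.10 in Irf2 KO (adjusted p = 0.104), 0.16 ± 0.10 in Nr4a1 KO (adjusted p = 0.338) and -0.01 ± 0.10 in the Bcl6 cKO-labelled libraries (adjusted p = 0.958). With the correction for GC content and length the Nr4a1 KO difference was 0.705 (adjusted p = 0.00162, or 0.00303 with the replicate block), and those in Irf2 KO and the Bcl6 cKO-labelled libraries were 0.023 and 0.312, not called.

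Of 10 myeloid genes known as PU.1 targets, 6 fell and 1 rose in Irf2 KO, beside 12.3% lower and 9.26% higher of all genes. The list median there was -0.58, beside -0.04 over all genes. The median was -0.06 in Nr4a1 KO and -0.13 in the Bcl6 cKO-labelled libraries, and no test compared the list with Spi1. The growth factor receptors Csf3r (-1.28), Csf1r (-0.75) and Csf2ra (-0.64), the endotoxin co-receptor Cd14 (-1.02), the integrin Itgam (-0.68) and the oxidase subunit Cybb (-0.52) fell, and the endotoxin receptor Tlr4 rose (1.53). Csf1r, Cd14 and Itgam are also on the classical monocyte list, whose sum was lower in the same libraries. Csf3r is also on the neutrophil list (11 of 11 genes with a row), which summed to 1585 to 1887 CPM in wild type, 842.4 to 1007 in the Bcl6 cKO-labelled libraries, 361.3 to 928.5 in Irf2 KO and 1899 to 2143 in Nr4a1 KO. Most of each sum was S100a8 and S100a9. Of the 11 genes, limma called 6 lower in Irf2 KO, 2 in the Bcl6 cKO-labelled libraries and 0 in Nr4a1 KO, and 0 higher in any. Ly6g, which was not called, had 60 and 95 reads in wild type and 30 and 116 in Irf2 KO. The part of neutrophils was not tested. In Nr4a1 KO Cd14 (1.08) and Tlr4 (0.88) rose and Ncf1 (-0.75) and Csf2ra (-0.66) fell, of which only Cd14 was called after the correction for GC content and length. In the Bcl6 cKO-labelled libraries Cd14 rose (1.13) and Csf3r fell (-0.41). Calls that held without any 1 library were those of Csf3r, Csf1r, Cybb and Tlr4 in Irf2 KO and Ncf1 in Nr4a1 KO. Of 11 other ETS family genes tested, limma and limma voom called 0 in any of the 3 comparisons with wild type, and 0, 2 and 4 had an unadjusted p under 0.05 in the Bcl6 cKO-labelled libraries, Irf2 KO and Nr4a1 KO. After the correction for GC content and length 1 of them, Elk4, was called in Nr4a1 KO.

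Runx1 (chromosome 16, 92601466-92826149, minus strand) was highest in the Bcl6 cKO-labelled libraries. Its level was 5.15 and 4.97 log2 CPM in wild type, 5.52 and 5.74 in the Bcl6 cKO-labelled libraries, 5.04 and 4.90 in Irf2 KO, and 5.20 and 5.37 in Nr4a1 KO. Both Bcl6 cKO-labelled libraries lay above the other 6. The difference from wild type was 0.57 ± 0.14 (SE), with an adjusted p of 0.0517 that just missed the threshold. The p passed under 8 alternatives and missed it under the others. Of 5 family members and partners tested, 1 was called against wild type: Cbfb, the subunit that stabilises RUNX proteins on DNA, rose by 0.43 in Nr4a1 KO, a call lost in 7 of the 8 fits that left out a library. Runx2 stood at -0.82 ± 0.26 in Irf2 KO (adjusted p = 0.054).

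Ikzf1 (chromosome 11, 11685003-11772926, plus strand) was not called in any of the 6 comparisons. Its level was 6.77 and 6.92 log2 CPM in wild type, 7.08 and 7.17 in the Bcl6 cKO-labelled libraries, 6.84 and 6.84 in Irf2 KO, and 7.01 and 6.89 in Nr4a1 KO. The Bcl6 cKO-labelled libraries were the 2 highest, at 0.28 ± 0.10 above wild type with an adjusted p of 0.157. In Irf2 KO the difference was 0.00 ± 0.10, with a 95% interval of -0.23 to 0.22. Of its paralogs 1, Ikzf5, was tested, and it was called in none of the comparisons with wild type.

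Zeb2 (chromosome 2, 44983632-45117395, minus strand) split the knockouts. Its level was 7.61 and 7.47 log2 CPM in wild type, 7.88 and 8.04 in the Bcl6 cKO-labelled libraries, 7.30 and 7.18 in Irf2 KO, and 7.87 and 7.98 in Nr4a1 KO. All 4 libraries of the Bcl6 cKO and Nr4a1 KO labels were above wild type, and both Irf2 KO libraries were below it. The rise in Nr4a1 KO was 0.38 ± 0.10 (SE), with an adjusted p of 0.0398. This call was lost in each of the 8 fits that left out 1 library (adjusted p up to 0.192) and in 7 other alternatives, the authors' deposited test and the correction for GC content and length (0.20, adjusted p = 0.205) among them. The differences were 0.42 ± 0.10 in the Bcl6 cKO-labelled libraries (adjusted p = 0.0544) and -0.30 ± 0.10 in Irf2 KO (adjusted p = 0.0712).

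The antisense gene Zeb2os shares 3.27% of the Zeb2 exon bases and had its own row, at 3.58 and 2.75 log2 CPM in wild type and 3.08 and 3.08 in Nr4a1 KO, where it was not higher. Zeb1, the paralog of Zeb2, had 286 and 217 reads in wild type and 38 and 1 in Irf2 KO. Its fall there passed (adjusted p = 0.0254), but the 2 Irf2 KO libraries lay far apart, and the call was lost without either wild type or either Bcl6 cKO-labelled library (adjusted p up to 0.0947). Zeb1 had 225 and 226 reads in the Bcl6 cKO-labelled libraries and 357 and 123 in Nr4a1 KO, and the corepressor genes Ctbp1 and Ctbp2 were not called against wild type.

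Bach2 (chromosome 4, 32238804-32586108, plus strand) had the largest fall of the 9 in Irf2 KO. It had 155 and 174 reads in wild type, 218 and 192 in the Bcl6 cKO-labelled libraries, 39 and 21 in Irf2 KO, and 128 and 143 in Nr4a1 KO. In log2 CPM these were 1.42 and 1.77, 1.82 and 1.88, -0.29 and -1.34, and 1.33 and 1.58. Both Irf2 KO libraries were below all 6 others. The log2 fold change against wild type was -2.41 ± 0.38 (SE), a 5.33-fold fall with an adjusted p of 0.00474. It passed in every alternative that tested it, with values from -2.94 to -1.89, and it was below the filter of 4 CPM. The difference was 0.26 ± 0.38 in the Bcl6 cKO-labelled libraries (adjusted p = 0.748). In Nr4a1 KO the difference was -0.14 ± 0.38 (adjusted p = 0.845). The antisense gene Bach2os overlaps 5.40% of the Bach2 exon bases.

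Bach2 is best known as a regulator of B cells, so B cell markers were set beside it. Cd79a, a subunit of the B cell receptor, had 539 and 504 reads in wild type, 188 and 149 in the Bcl6 cKO-labelled libraries, 47 and 22 in Irf2 KO, and 68 and 118 in Nr4a1 KO. Ebf1, a transcription factor of early B cells, had 277 and 199, 62 and 84, 0 and 2, and 37 and 50 reads in the same order. Cd79a and Ebf1 were lowest in Irf2 KO, as Bach2 was. They were also low in the Bcl6 cKO-labelled libraries and in Nr4a1 KO, where Bach2 was not. Other genes of the list differed. Cd79b stood at 47.9 and 54.1 CPM in wild type and 32.1 and 28.4 in the Bcl6 cKO-labelled libraries. It was 41.2 and 35.3 CPM in Irf2 KO and 41.95 and 34.4 in Nr4a1 KO. Igkc stood at 14.6 and 10.2 CPM in wild type and 4.42 and 19.2 in the Bcl6 cKO-labelled libraries. It was 0.877 and 1.79 CPM in Irf2 KO and 44.4 and 16.3 in Nr4a1 KO. The whole list (8 of 9 genes with a row) summed to 695 to 787.5 CPM in wild type and 734.4 to 789.2 CPM in Irf2 KO, nearly all from Ighm. Without Ighm it summed to 88.3 to 89.1 CPM in wild type, 43.4 to 54.6 in the Bcl6 cKO-labelled libraries, 38.1 to 43.8 in Irf2 KO and 59.0 to 91.2 in Nr4a1 KO. In Irf2 KO nearly all of this sum was Cd79b (41.2 and 35.3 CPM). Of 5 list genes tested, limma called Vpreb3, Cd79a and Igkc lower in Irf2 KO. It called Cd79b lower in the Bcl6 cKO-labelled libraries and Cd79a in Nr4a1 KO, and 0 higher in any of these. The plasmacytoid dendritic cell and B cell progenitor marker Ly6d had 348 and 278 reads in wild type and 5 and 1 in Irf2 KO. The plasmacytoid dendritic cell list as a whole (8 of 9 genes with a row) summed to 520.4 to 597.2 CPM in wild type and 683.8 to 703.2 in Irf2 KO, where Bst2, also an interferon-induced gene, rose (1.73) and Ly6d, Bcl11a and Ccr9 fell. The part of these cells in the fall of Bach2 was not tested.

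**Figure D4:**
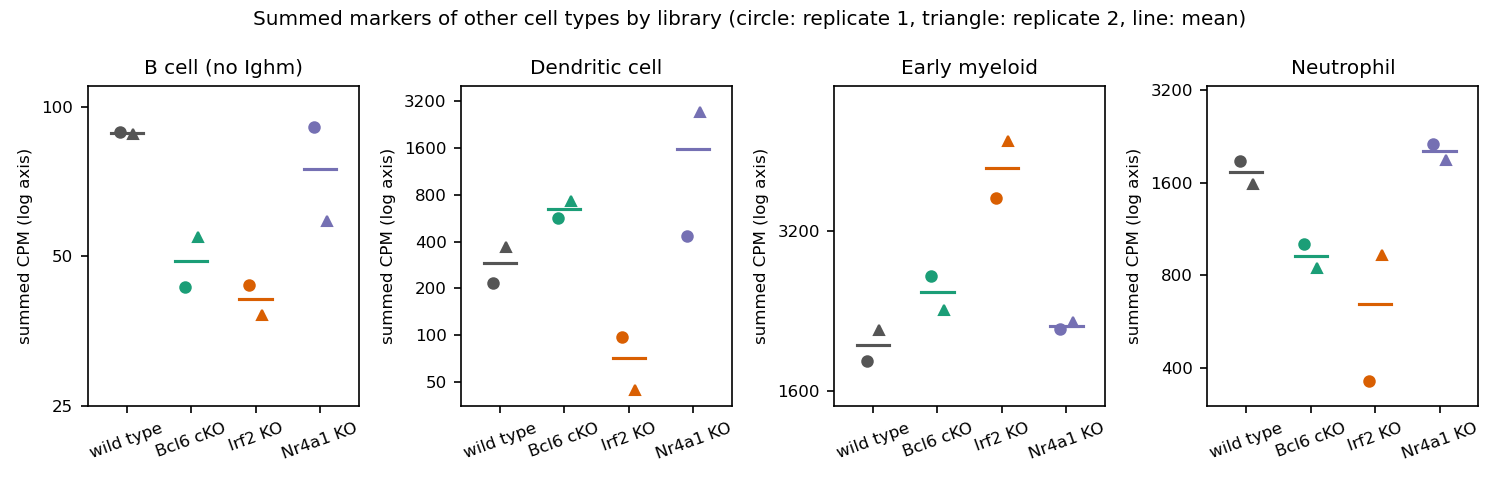
Summed CPM (y axis, log scale) of marker genes of 4 other cell types by library and genotype (x axis), without the regulators described here, with replicate 1 as a circle, replicate 2 as a triangle and the mean as a line. The early myeloid sum is highest in Irf2 KO (3691 to 4733 CPM), and the B cell sum without Ighm is 38.1 to 43.8 there, overlapping the Bcl6 cKO-labelled libraries (43.4 to 54.6). Nearly all of that B cell sum in Irf2 KO is Cd79b (41.2 and 35.3 CPM), so the overlap does not hold for the other genes.

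BACH2 binds DNA with small MAF proteins and belongs to a group with BACH1 and the CNC factors. Nfe2, a CNC factor of blood cells, fell in all 3 comparisons with wild type. It fell by 0.84 in the Bcl6 cKO-labelled libraries, 1.11 in Irf2 KO and 0.89 in Nr4a1 KO. The erythroid marker list (4 of 8 genes with a row) was lower in these groups too. It summed to 24.35 to 25.45 CPM in wild type and 7.61 to 15.5 in the Bcl6 cKO-labelled libraries. The sum was 2.62 to 4.87 CPM in Irf2 KO and 9.23 to 13.9 in Nr4a1 KO. The part of erythroid cells in the Nfe2 values was not tested. Bach1, the close relative of Bach2, fell in Irf2 KO (-0.71, adjusted p = 0.0059), and the small MAF genes Mafk (-1.14) and Mafg (-0.64) fell in Nr4a1 KO. The falls of Nfe2 in Irf2 KO and Nr4a1 KO and of Bach1 held without any 1 library. That of Nfe2 in the Bcl6 cKO-labelled libraries was lost without Bcl6 cKO replicate 1 or wild type replicate 1, and those of Mafk and Mafg without single Nr4a1 KO or wild type libraries. Of 7 genes tested in this group, 1, 2 and 3 fell in the 3 comparisons and 0 rose. Of all genes, 3.65%, 12.3% and 11.2% were called lower in the same order. Hmox1, a gene that BACH1 is known to repress, was not called, at -0.40 ± 0.17 in Irf2 KO.

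The direct comparisons between knockouts reuse the same libraries. Between Irf2 KO and Nr4a1 KO 6 of 9 regulators were called, beside 22.3% of all genes (12.4% higher in Irf2 KO, 9.94% lower). Myc was 5.72-fold higher in Irf2 KO (2.52 ± 0.25, adjusted p = 0.000308), and Flt3, Bach2, Cd34, Zeb2 and Spi1 were lower. Zeb2 differed by -0.68 ± 0.10 (adjusted p = 0.0025), Bach2 by -2.28 ± 0.38 (adjusted p = 0.00391) and Cd34 by -1.53 ± 0.28 (adjusted p = 0.00637). The calls of Myc, Zeb2, Bach2 and Cd34 held in every alternative that tested them. Flt3 differed by -2.70 ± 0.61 (adjusted p = 0.0148), by -1.70 without Nr4a1 KO replicate 1, and was not called without Irf2 KO replicate 1 (adjusted p = 0.0776). Spi1 differed by -0.42 ± 0.10 (adjusted p = 0.0211), and the call was lost without either Irf2 KO library or Nr4a1 KO replicate 1 (adjusted p up to 0.114).

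Between the Bcl6 cKO-labelled libraries and Irf2 KO 4 of 9 were called, beside 9.55% of all genes (5.68% higher, 3.87% lower), and all 4 were higher in the former. Bach2 was 6.37-fold higher (2.67 ± 0.38, adjusted p = 0.00581), Cd34 2.31-fold (adjusted p = 0.0343), Zeb2 1.65-fold (adjusted p = 0.0061) and Runx1 1.58-fold (adjusted p = 0.023). Leaving out single libraries moved this count from 0 to 6, with 0 without Bcl6 cKO replicate 2, while the number called of all genes ran from 138 to 1647. Myb differed by -0.99 ± 0.26 (adjusted p = 0.051). Between the Bcl6 cKO-labelled libraries and Nr4a1 KO 1 of 9 was called, beside 5.75% of all genes (4.97% higher, 0.776% lower): Myc, 5.32-fold higher (2.41 ± 0.25, adjusted p = 0.000891), in every alternative run.

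Other progenitor genes gave a mixed picture. Of 6 stem and progenitor transcription factors tested, Lyl1 fell in all 3 comparisons with wild type, at -0.67, -0.73 and -0.70 in the Bcl6 cKO-labelled libraries, Irf2 KO and Nr4a1 KO. Lmo2, which encodes an adaptor that joins such factors into complexes, rose in Irf2 KO (0.92) and Nr4a1 KO (0.81). The Lmo2 calls held without any 1 library, and each Lyl1 call was lost without 3 or more of them in turn. Of 10 surface and cytokine receptor genes and ligands, 4 fell and 1 rose in Irf2 KO, beside 12.3% lower and 9.26% higher of all genes. Flt3l, the ligand of FLT3, was among the 4 (-1.52, adjusted p = 0.00308), with Csf1r, Csf3r and Csf2ra, and the stem cell antigen gene Ly6a rose (2.41, adjusted p = 0.0387). The Flt3l, Csf1r and Csf3r calls held without any 1 library, and that of Ly6a was lost without 5 of the 8 in turn. In Nr4a1 KO Il3ra (-1.66), whose call held likewise, and Csf2ra (-0.66) fell. Of 4 MYB relatives and coactivators tested, limma and limma voom called 0 against wild type, and 1 had an unadjusted p under 0.05, in Nr4a1 KO.

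GFI1 itself was not analysed here, and its partners and known targets were read from the same lists. Of 5 genes for its paralog and corepressors, Hdac2, a histone deacetylase, rose in Irf2 KO (0.52) and Nr4a1 KO (0.66), calls lost without 4 and 2 of the 8 libraries in turn. Of 5 genes that GFI1 is known to repress, Id2 fell in the Bcl6 cKO-labelled libraries (-1.34) and in Irf2 KO (-1.39). Id1 fell in the Bcl6 cKO-labelled libraries (-1.06) and in Nr4a1 KO (-3.72), where Cdkn1a also fell (-0.70). The calls of Id2 in Irf2 KO and Id1 in Nr4a1 KO held without any 1 library, and the other 3 did not.

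For 5 regulators called against wild type, the genes with the most alike pattern over the 8 libraries were sought among 8694 genes, 8695 for Bach2, with a mean of at least 4 CPM. Likeness was the root mean square of the log2 differences after each gene was centred. For Myb these were Tmsb10 (0.156), Gar1 (0.166) and Ndufaf2 (0.197), beside a median of 0.559 over all genes. For Myc they were Etfa (0.156), Ube2a (0.158) and Rex1bd (0.203), beside 1.08. For Zeb2 they were Ifnar2 (0.0698), Pnisr (0.0945) and Bace1 (0.0963), beside 0.382. Those of Bach2 were Arsb (0.269), Septin6 (0.304) and Stap1 (0.309), beside 1.12, and those of Cd34 were Dgkg (0.232), Lilrb4a (0.236) and Otof (0.236), beside 0.71.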

How the data were processed

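Per the labels' protocols, cDNA was made from 10 ng of total RNA with the SMARTer Ultra Low kit, which does not mark strand, and sequenced as paired 150-base reads. The submitters' processing notes name STAR, Subread featureCounts, Salmon and limma with mm10, with no order of steps. The deposited values are log2 CPM: the authors added 0.5 to the reads and 1 to the scaled total before dividing. Undoing this gave whole reads for 100% of values within 0.01. The authors' deposited table also gave p-values and adjusted p-values against wild type, used as an alternative. Of 13789 rows 45 repeats were left out.

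Genes averaging 1 CPM or more (0 on the log2 scale), 12752 in all, went into a limma 3.58.1 fit (R 4.3.3) with 4 group means, all 8 libraries and a trend of the prior variance (4 residual and 4.66 prior degrees of freedom). Adjustment was by Benjamini-Hochberg per comparison, with a threshold of 0.05. SEs and 95% intervals assume a like spread in all groups. The procedure was tested on simulated data. Exons came from GENCODE M21 (GRCm38), promoters from RefSeq. Alternatives were limma voom, the authors' test, leaving out each library, a replicate block, fitting the 2 groups compared alone, quality weights, median centring, quantile normalization, no trend, no filter, a 4 CPM filter and, chosen after seeing the data, a correction for GC content and length.

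The members, lists and tests were chosen with earlier results of these data known. The naming rule took every member, up to 4 called genes per list and comparison with the largest change, and the 3 genes most alike to each called member. Other list genes were named after their values were seen. With 2 libraries a group, precision is limited, and Bach2 and Flt3 rest on 21 to 487 reads per library. Same-numbered libraries did not deviate together in every pair of groups, so replicate numbers were not treated as pairs.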

Additional observations from a re-analysis of the deposited data

How the results depend on the processing

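With 2 libraries a group, single libraries decide several calls. When each was left out in turn, the number of the 9 regulators called ran from 0 to 2 for the Bcl6 cKO-labelled libraries against wild type, 2 to 4 for Irf2 KO, 1 to 2 for Nr4a1 KO, 4 to 7 for Irf2 KO against Nr4a1 KO, 0 to 6 for Bcl6 cKO against Irf2 KO and 1 to 1 for Bcl6 cKO against Nr4a1 KO. Calls over all genes moved with them, from 33 to 917, 1076 to 3190, 1065 to 1775, 1460 to 2705, 138 to 1647 and 250 to 859 in the same order. The lone library of a group was then assumed to vary like the others. Bcl6 cKO against wild type had 2 calls, Runx1 and Zeb2, with the filter of 4 CPM, quality weights, voom, median centring, quantile normalization and the authors' deposited test. Nr4a1 KO had 1 call, Myc, with quality weights, no trend, the 2 groups alone, the replicate block and the authors' test. With the GC correction it had 2 calls, Myc and Spi1 (0.705, adjusted p = 0.00162) in place of Zeb2, and without Nr4a1 KO replicate 2 they were Myc and Flt3 (1.792, adjusted p = 0.0407). Flt3 in Irf2 KO was gained with quality weights and with the 2 groups alone. Bcl6 cKO against Irf2 KO had 2 calls with no trend, and Bcl6 cKO against Nr4a1 KO had 2 (Myc and Spi1) with the correction for GC content and length. For the settings other than leaving out a library, the number of all genes called is not given here. No change in these counts is read as particular to the regulators. The causes were not tested.

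As to the pairing, deviations of same-numbered libraries correlated at -0.00287 to 0.183 between groups. The replicate block changed 1 call against wild type, Zeb2 in Nr4a1 KO (adjusted p = 0.0502).

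No value called in the main test changed sign. Uncalled values that did, against wild type, are given with their range when each library was left out. In the Bcl6 cKO-labelled libraries these were Spi1 (0.312 with the GC correction with or without the block, 0.056 centred, 0.069 quantile, -0.078 to 0.049), Myb (-0.139 to 0.264) and Flt3 (-0.322 to 0.634). In Irf2 KO they were Spi1 (0.023 with the GC correction with or without the block), Ikzf1 (0.118 likewise, 0.098 centred, 0.045 quantile, -0.080 to 0.071) and Runx1 (0.023, 0.013 and 0.003 likewise, -0.180 to 0.001). In Nr4a1 KO they were Cd34 (0.056 centred, 0.035 quantile, -0.311 to 0.163), Flt3 (-0.195 to 1.792, called at the upper end) and Bach2 (-0.308 to 0.034).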
